A study of Mus musculus with 4 samples.

Results

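The genes described here encode the costimulatory and checkpoint molecules by which an antigen-presenting cell tunes a T cell response. They were taken by symbol from the deposited count table, as all rows named Cd40, Cd80, Cd86, Cd83, Cd274, Pdcd1lg2, Icosl or Cd276. This gave 8 genes of 54532 in the table, of which 7 passed the filter on low counts. Cells were mouse macrophages grown from bone marrow for 7 days in medium conditioned by L929 cells, a fibroblast line that supplies macrophage colony-stimulating factor. After that they were left for 24 h with either a negative-control mimic (2 libraries, called control below) or a miR-204-3p mimic (2 libraries, called mimic below), delivered by transfection. A mimic is a synthetic RNA duplex that stands in for a natural microRNA. The labels name no strain, sex, age or animal, and both groups carry a transfected duplex, so no untransfected cells serve as a reference. Whether the libraries within a group derive from separate animals or cultures is not stated either, so each p-value speaks for the spread among these 4 libraries alone, and that spread may be technical. The level of the mature microRNA was not measured here.

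T cells need a signal besides the antigen receptor. CD80 and CD86 give it through CD28, and the same pair engages the inhibitory receptor CTLA-4. ICOSL binds ICOS, and CD40 on the macrophage receives CD40 ligand from the T cell. PD-L1 (Cd274) and PD-L2 (Pdcd1lg2) bind the inhibitory receptor PD-1, B7-H3 (Cd276) is a further member of the B7 family with an inhibitory role in T cell assays, and CD83 is an immunoglobulin-family protein known as a maturation marker of dendritic cells. In macrophages these genes respond to microbial ligands, interferons and CD40 ligation.

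The seed of the microRNA and its matches in the members' transcripts are shown because a microRNA recognises transcripts mainly through these bases. Mature miR-204-3p is encoded on mouse chromosome 19 (RefSeq, GRCm38.p6, chr19:22750649-22750669, plus strand). Its seed, bases 2 to 8, is in capitals.
mmu-miR-204-3p: gCUGGGAAggcaaagggacgu
For each member the longest 3′ UTR in GENCODE vM21 (GRCm38) was searched for TTCCCAG, the full match to the seed on the transcript strand. They were present once each in Cd86, Cd83, Pdcd1lg2 and Cd276. The sites follow 5′ to 3′ with the match in capitals, at chr16:36605066-36605093 (minus strand), chr13:43802167-43802194 (plus), chr19:29470842-29470869 (plus) and chr9:58526305-58526332 (minus).
Cd86: aatggcttctTTCCCAGgaataacattt
Cd83: agcaaataatTTCCCAGtgcgaaggtcc
Pdcd1lg2: gacatggaaaTTCCCAGttactaaaata
Cd276: gctgctgcccTTCCCAGgtggggggccc
No member held the longer match TTCCCAGA. Among 11276 tested protein-coding genes with an annotated 3′ UTR, 22.5% held TTCCCAG and 6.23% held TTCCCAGA. The members' 3′ UTRs were 669 (Pdcd1lg2) to 2683 (Cd274) bases long, against a median of 1133 bases, and a longer sequence holds more matches. Icosl and Cd276 also held the match TCCCAGA, found in 16.8% of genes, and no match of 7 bases was found in Cd40, Cd80 or Cd274. A match in a sequence is a description and does not show that the site is used.

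Of the 7 tested members 6 rose with the miR-204-3p mimic and 1, Cd83, fell, while Pdcd1lg2 was too low to be tested. Cd40 and Cd276 rose about as much as each other (6.4-fold and 5.96-fold), followed by Cd274 (3.1-fold), Cd86 (2.53-fold), Icosl (1.96-fold) and Cd80 (1.79-fold). The median log2 fold change was 1.34 over the 7 tested members and 0.04 over all 13186 tested genes (all log2 fold changes are mimic over control, ± the standard error). Calls come from edgeR's quasi-likelihood test with Benjamini-Hochberg adjustment at 0.05. Changes were common in this contrast. Of all tested genes 60.8% passed in either direction, 31.1% as higher and 29.7% as lower, so 7 called members stand against a high background. The groups did not overlap for any of the 7 tested members, as for 80.7% of all tested genes. In bulk RNA fewer cells of a type and less RNA per cell cannot be told apart.

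Total counts were 15899235 to 16837826 per library, and the 8 members together held 0.0201% and 0.0212% of all control counts and 0.0708% and 0.0798% of all mimic counts. Values are given below as CPM, the usual depth-normalised counts, scaled by TMM factors of 0.878 and 0.886 (control) and 1.14 and 1.13 (mimic). A count of 0 in a library would allow up to 3 counts, or 0.178 to 0.189 CPM before that scaling, by counting error only. With library size alone the median over all genes moved from 0.04 to 0.40 on the log2 scale and the split of called genes from 4101 higher and 3921 lower to 6151 higher and 2513 lower, so every direction is relative to the scaling. All 6 higher members stayed higher and past the threshold under each of the 11 alternative settings tried.

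The tested macrophage markers were present in every library, but most were lower with the mimic. Of 7 tested, 6 fell and 1, Fcgr1, rose, beside 29.7% lower and 31.1% higher over all tested genes. These shares also stand beside the marker counts below. The summed level of the macrophage markers was 17200 and 19000 CPM in the control against 3440 and 3460 CPM in the mimic libraries. Most of each sum was Lyz2, at 13799 and 15307 CPM in control and 2146 and 2113 CPM in mimic libraries. Mertk, not tested, had 0 to 10 counts per library. Markers of other cell types were summed in the same way, and the members themselves summed to 229.7 and 239.6 CPM in control and 620.7 and 709.6 CPM in mimic libraries. B cell markers summed to 251 and 227 CPM in control and 3.85 and 4.37 CPM in mimic libraries, with Ms4a1 at 0 counts throughout and 4 of 4 tested markers lower. Nearly all of that sum was Ighm, while Cr2, not tested, went from 0 and 1 counts to 9 and 10. Dendritic cell markers summed to 165 and 139 against 35.2 and 34.6 CPM, 3 of 5 tested being lower, with Cd209a at 0 and Flt3 at 1 count in all. Most of that sum was Tcf4 and Itgax. Xcr1 had more counts in the mimic libraries, 6 and 9 against 15 and 26 (edgeR adjusted p = 0.12, but 0.038 with library size alone). So did Fscn1, with 0 and 2 against 8 and 17, and Ccr7, with 0 and 1 against 2 and 3. Siglech went the other way, from 34 and 33 counts to 0 and 0 (edgeR adjusted p = 8.8e-06). Clec9a, not tested, had 0 and 9 counts against 0 and 0. T and NK cell markers summed to 5.55 and 4.76 against 28.5 and 27.4 CPM. Of these only Lck passed the filter, and it rose, while 5 of the 8, Cd3e and Trac among them, were at 0. Neutrophil markers summed to 174 and 241 against 15.4 and 11.2 CPM, 3 of 4 tested being lower. Most of the control sum was Prtn3, at 134 and 174 CPM. S100a8 had more counts in the mimic libraries, 6 and 8 against 13 and 17 (edgeR adjusted p = 0.3). Mpo, not tested, had 0 and 0 against 1 and 8. Fibroblast markers stayed below 0.5 CPM. The part of other cells in the members' changes was not tested.

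**Figure D1:**
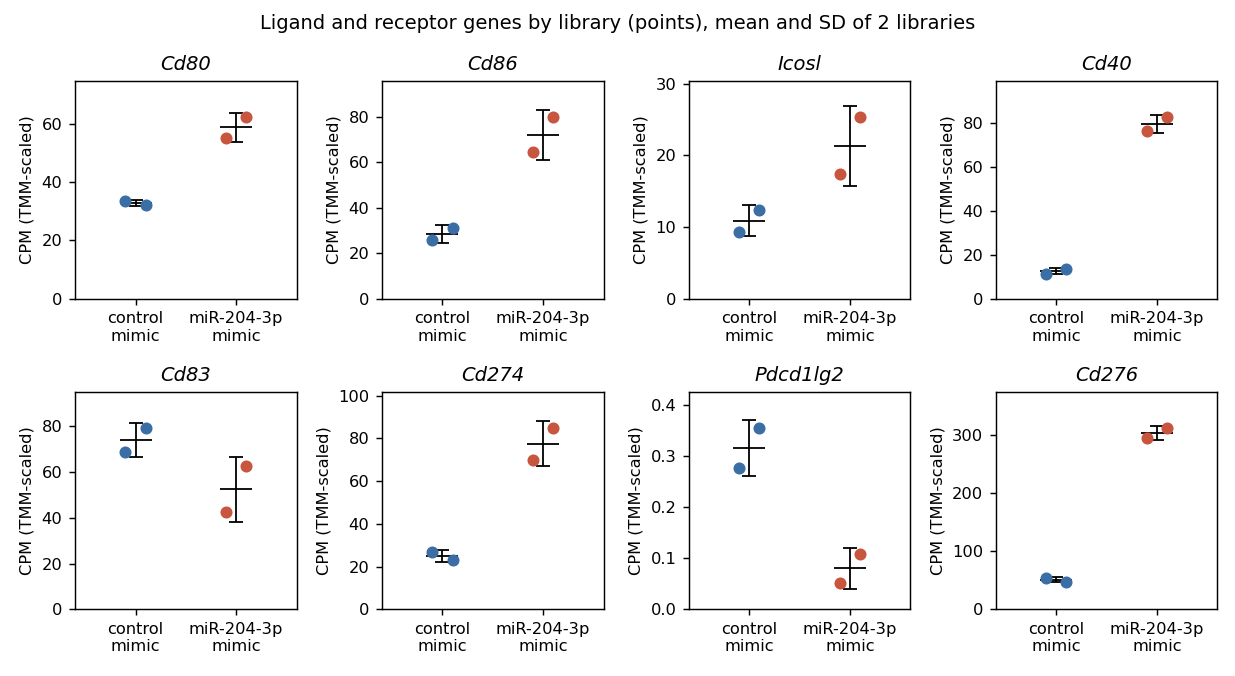
CPM of each of the 8 members (vertical axis, TMM-scaled, starting at 0, a different scale in each panel) in the 2 control-mimic and 2 miR-204-3p-mimic libraries. Points are libraries, and the bar with whiskers is the mean ± SD. The mimic libraries lie above the control libraries for 6 members and below them for Cd83 and for Pdcd1lg2, which stays under 0.4 CPM.

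Cd80 and Cd86, the paired ligands of CD28 and CTLA-4, both rose, with the larger estimate for Cd86. Cd86 (ENSMUSG00000022901, mm10 chromosome 16, 36603869 to 36666081, minus strand) was at 25.8 and 31.1 CPM in the control libraries and at 64.4 and 79.8 CPM in the mimic libraries. Its mean went from 28.5 ± 3.77 to 72.1 ± 10.9 CPM (SD, n = 2), a log2 fold change of 1.34 ± 0.16 (edgeR adjusted p = 5.2e-06). The gap between the groups was wider than the spread within either.

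Cd80 (ENSMUSG00000075122, chromosome 16, 38455561 to 38496335, plus strand) was at 33.6 and 32.1 CPM in control and at 55.2 and 62.2 CPM in mimic libraries. The log2 fold change was 0.84 ± 0.14 (edgeR adjusted p = 1.6e-04), and 20.3% of tested genes had a larger positive value. Both genes lie on the same chromosome but 1790 kb apart, with 25 protein-coding genes between them. The ratio of Cd86 to Cd80 counts within a library, in which scaling cancels, had a log2 of −0.38 and −0.05 in control and 0.22 and 0.36 in mimic libraries. Cd80 thus had more counts than Cd86 in both control libraries and fewer in both mimic libraries. The difference of 0.50 had an exact two-sided permutation p = 0.333, the smallest that 2 libraries against 2 can give. It was 0.34 without control replicate 1.

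Icosl (ENSMUSG00000000732, chromosome 10, 78069302 to 78083913, plus strand), which encodes the ligand of ICOS, was the lowest of the tested members per kilobase of gene length. It was at 9.36 and 12.4 CPM in control libraries and 17.4 and 25.3 CPM in mimic libraries. The groups did not overlap, though the mimic libraries differed from each other by more than the control libraries did (21.4 ± 5.62 against 10.9 ± 2.18 CPM, SD, n = 2). Its log2 fold change of 0.97 ± 0.22 (edgeR adjusted p = 0.0018) had the widest 95% interval of the 7 tested members, 0.49 to 1.45.

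Cd40 (ENSMUSG00000017652, chromosome 2, 165055627 to 165072948, plus strand) encodes the receptor through which helper T cells activate macrophages and dendritic cells. It was at 11.4 and 13.4 CPM in the control libraries and at 76.5 and 82.6 CPM in the mimic libraries. The lowest mimic value was far above the highest control value, with a log2 fold change of 2.68 ± 0.16 (edgeR adjusted p = 4.7e-09). Only 3.72% of tested genes had a larger positive value. Among the members it had the largest fold change, yet its 95% interval, 2.34 to 3.01, overlapped that of Cd276, 2.29 to 2.86.

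Cd83 was the member that moved the other way, and its call depended on the settings. Cd83 (ENSMUSG00000015396, chromosome 13, 43784775 to 43803132, plus strand) was at 68.5 and 79.0 CPM in control and 42.4 and 62.4 CPM in mimic libraries. One mimic library was close to the control range and the other was clearly below it. The mean went from 73.8 ± 7.44 to 52.4 ± 14.2 CPM (SD, n = 2), a log2 fold change of −0.49 ± 0.17 (edgeR adjusted p = 0.021). It did not pass with library size alone (−0.13, adjusted p = 0.51), with offsets for gene length (−0.36, adjusted p = 0.058), without control replicate 2 (−0.40, adjusted p = 0.070) or without mimic replicate 1 (−0.24, adjusted p = 0.19). The raw counts themselves were 988 and 1112 against 815 and 1144, which overlap. The 95% interval of the log2 fold change ran from −0.86 to −0.13 and did not reach the values of the 6 higher members, whose lowest interval bound was 0.49.

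**Figure D2:**
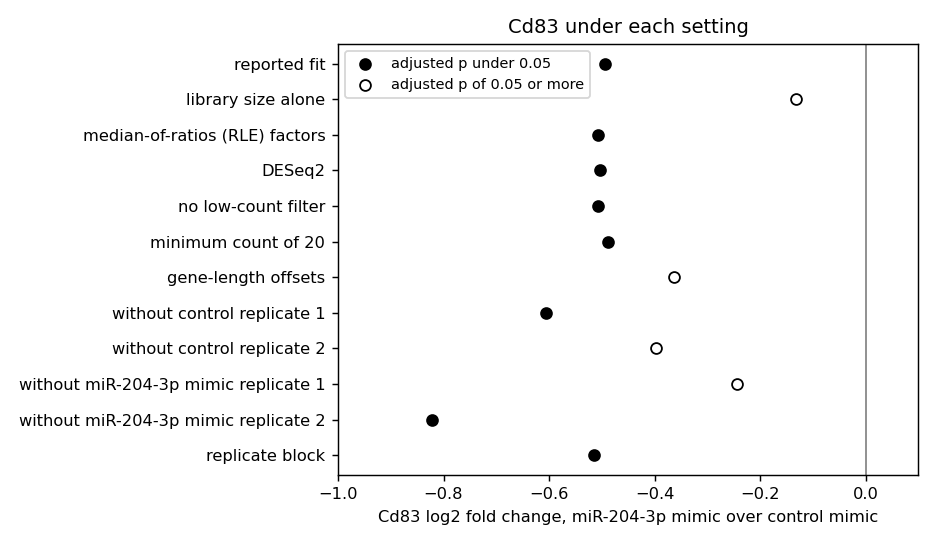
Cd83 log2 fold change (horizontal axis, mimic over control) in the reported fit and under 11 alternatives (vertical axis). Filled points have an edgeR or DESeq2 adjusted p under 0.05 and open points do not. All values lie below 0, from −0.82 to −0.13, and 4 of the 11 alternatives do not pass.

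The PD-1 ligands stood far apart in level. Cd274 (ENSMUSG00000016496, chromosome 19, 29367455 to 29388095, plus strand), which encodes PD-L1, was at 26.8 and 23.1 CPM in control libraries and at 69.9 and 84.8 CPM in mimic libraries. Both mimic libraries were above both control libraries, with a log2 fold change of 1.63 ± 0.15 (edgeR adjusted p = 5.7e-07). Of the 50-base stretches of its transcript 12.4% also occur in transcripts of other genes, so some of its reads could be assigned elsewhere.

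Pdcd1lg2 (ENSMUSG00000016498, chromosome 19, 29410919 to 29471157, plus strand), which encodes PD-L2, had 4 and 5 counts in control and 1 and 2 counts in mimic libraries. Every library was near the detection floor. Scaled for depth, the ratio of mimic to control over the pooled counts was 0.253, with a 95% counting interval of 0.0441 to 1.01, and without the low-count filter its log2 fold change of −1.90 did not pass (edgeR adjusted p = 0.33). A fall was therefore not detected at this depth. The log2 ratio of Cd274 to Pdcd1lg2 counts, with 0.5 added to each, was 6.43 and 5.89 in control and 9.81 and 9.28 in mimic libraries, a difference of 3.39 (exact two-sided permutation p = 0.333, the smallest possible). That ratio rests on 12 Pdcd1lg2 counts in all.

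These neighbouring genes lie 22.8 kb apart on the same strand, with no other gene of the table between them. Their promoters are shown because the pair differs so much in level. RefSeq's table (GRCm38.p6) gives 250 bases before and 50 after the annotated start, at chr19:29367188-29367487 for Cd274 and chr19:29410669-29410968 for Pdcd1lg2, both on the plus strand. Capitals mark the GC box GGGCGG on either strand, the only searched motif found in these windows.
Cd274: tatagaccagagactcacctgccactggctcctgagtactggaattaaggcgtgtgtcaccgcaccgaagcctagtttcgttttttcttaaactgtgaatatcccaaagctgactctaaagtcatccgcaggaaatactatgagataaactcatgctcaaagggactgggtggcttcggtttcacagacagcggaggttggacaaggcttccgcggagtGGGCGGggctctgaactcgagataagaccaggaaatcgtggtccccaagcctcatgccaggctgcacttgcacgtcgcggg
Pdcd1lg2: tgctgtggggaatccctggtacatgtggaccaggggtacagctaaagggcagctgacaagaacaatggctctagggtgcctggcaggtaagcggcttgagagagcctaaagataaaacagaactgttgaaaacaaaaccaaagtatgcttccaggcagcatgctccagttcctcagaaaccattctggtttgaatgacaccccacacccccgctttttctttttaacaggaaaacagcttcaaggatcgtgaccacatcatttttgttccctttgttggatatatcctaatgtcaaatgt
The Cd274 window held 1 GC box and 15 CpG dinucleotides, and the Pdcd1lg2 window held 0 and 3. The median of 32851 promoters of this length was 7 CpG, and 35.7% held GGGCGG.

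Cd276 had the highest level of the members after the mimic. Cd276 (ENSMUSG00000035914, chromosome 9, 58524298 to 58555437, minus strand), which encodes B7-H3, was at 53.9 and 48.0 CPM in control libraries and at 295 and 312 CPM in mimic libraries. Each group was tight, and the log2 fold change of 2.58 ± 0.13 (edgeR adjusted p = 1.3e-09) had the smallest standard error of the 7 tested members. Its 3′ UTR carries the seed match shown above, as do those of Cd86, Cd83 and Pdcd1lg2. The part of these sites in the changes was not tested. Gm10657, a gene model on the opposite strand that GENCODE marks as still to be verified, overlaps Cd276. It shares 9.92% of the 50-base stretches of Cd276, but had only 0 and 1 counts in control and 7 and 15 in mimic libraries. The Cd276 promoter (chr9:58554984-58555283, minus strand, same source and marking) is shown as the one of the member with the most counts.
Cd276: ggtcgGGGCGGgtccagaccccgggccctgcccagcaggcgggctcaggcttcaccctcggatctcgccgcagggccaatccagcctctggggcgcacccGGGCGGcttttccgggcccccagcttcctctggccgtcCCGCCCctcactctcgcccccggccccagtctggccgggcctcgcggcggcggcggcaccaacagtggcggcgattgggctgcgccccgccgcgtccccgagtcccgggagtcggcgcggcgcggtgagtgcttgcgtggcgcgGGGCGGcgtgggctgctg
It held 4 GC boxes and 39 CpG at 78.3% G and C, against a median of 52.7% G and C over all promoters. Promoter sequences were also found for Icosl, with 1 GC box and 26 CpG at 68.0% G and C, and for Cd80. The Cd80 sequence held no GC box and 3 CpG at 49.7%. Its window (chr16:38458683-38458982, plus strand) lies inside the gene, which begins at 38455561, and does not cover that start. The 5 promoters held none of the letters TTCNNNGAA (bound by STAT factors, 8.3% of all promoters), GAAA, any 2 bases, GAAA (interferon regulatory factors, 3.44%), GGGA, any 2 bases, TTCC (NF-kB, 1.47%) or GAGGAAGT (PU.1, 3.2%), sought on either strand. This concerns these windows only.

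**Figure D3:**
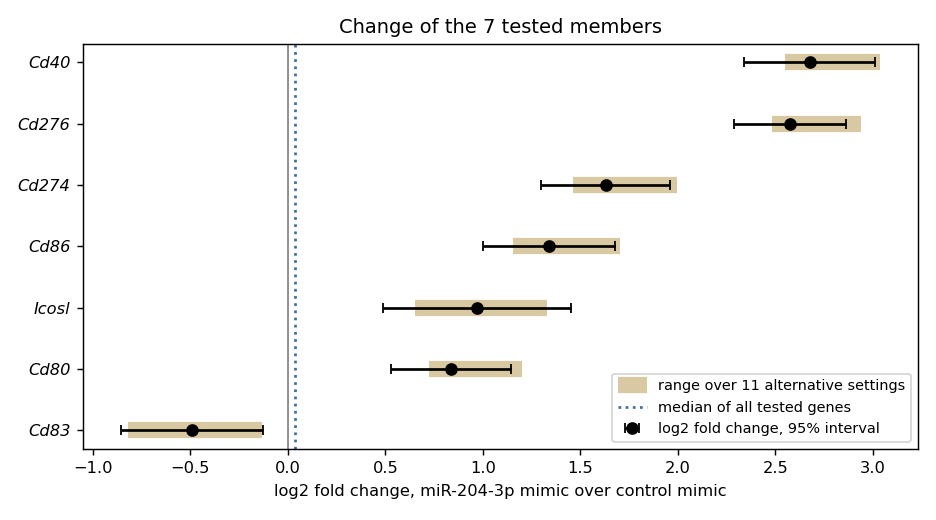
Log2 fold change, mimic over control (horizontal axis), of the 7 tested members (vertical axis). Points with whiskers are the edgeR estimate and its 95% interval, bands span the 11 alternative settings, and the dotted line is the median of all tested genes at 0.04. The bands of 6 members stay above 0 and that of Cd83 stays below.

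The order of the members by level changed between the groups. Levels between genes were compared as CPM per kilobase of listed gene length (means ± SD, n = 2). In control libraries Cd83 was highest at 28.7 ± 2.89, followed by Cd276 at 13.9 ± 1.14 and Cd80 at 8.87 ± 0.27. Cd86 at 7.77 ± 1.03 and Cd274 at 6.89 ± 0.73 overlapped each other. Cd40 at 3.65 ± 0.41, Icosl at 2.36 ± 0.47 and Pdcd1lg2 at 0.192 ± 0.034 came last, each below the range of the one before. In mimic libraries Cd276 led at 83.0 ± 3.41 CPM per kilobase. Cd40 (23.4 ± 1.25), Cd274 (21.4 ± 2.9), Cd83 (20.4 ± 5.51) and Cd86 (19.7 ± 2.98) followed, and each overlapped the next, so their order was not resolved. Cd80 at 15.8 ± 1.33 overlapped Cd83 but not the others. Icosl at 4.62 ± 1.22 and Pdcd1lg2 at 0.049 ± 0.025 stood below all of them without overlap.

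Shares within the set do not depend on library scaling and show the same shift. Of the members' summed counts per kilobase, Cd83 made up 37.8% and 41.4% in control libraries and 9.41% and 12.0% in mimic libraries. Cd276 went from 20.9% and 17.7% to 46.0% and 42.4%, and Cd40 from 4.77% and 5.31% to 12.8% and 12.0%. Thus the largest share passed from Cd83 to Cd276. Cd86 stayed at 10.0% and 11.5% against 10.0% and 10.8%, overlapping, and Cd80 went from 12.9% and 11.7% to 8.51% and 8.33% although its CPM rose. The share of Cd83 is a relative measure, and it is lowered by the rise of the other members.

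**Figure D4:**
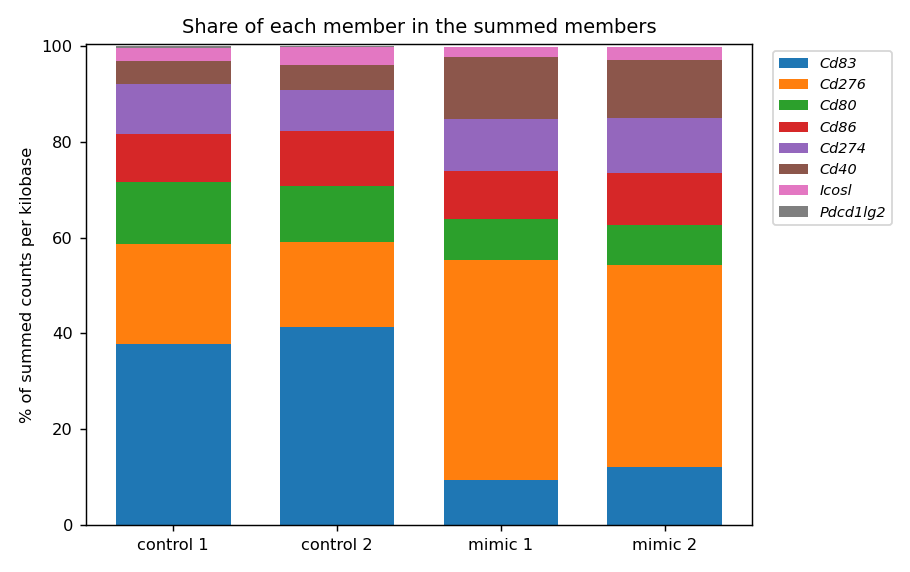
Share of each member in the summed counts per kilobase of the 8 members (vertical axis, percent) in each library (horizontal axis). Colours are genes, stacked from the bottom in the order of the key. Cd83 is the largest part in both control libraries (37.8% and 41.4%) and Cd276 in both mimic libraries (46.0% and 42.4%), and Pdcd1lg2 is too small to see.

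Other costimulatory and checkpoint ligands and partners changed in both directions. Of 20 listed genes 13 were tested, 7 rose, 2 fell and 4 missed the threshold, against 31.1% higher and 29.7% lower among all tested genes. With 60.8% of all genes called, these few genes show no more than their own values. Their median log2 fold change was 0.73 (8 higher and 1 lower with library size alone). Pvr, the ligand of DNAM-1 and TIGIT, rose from 30.3 ± 1.37 to 113 ± 23.9 CPM (SD, n = 2), Ceacam1, a ligand of TIM-3, rose from 26.8 ± 4.19 to 75.9 ± 1.31 CPM, and H2-T23, which encodes the NKG2A ligand Qa-1, from 95.8 ± 4.0 to 183 ± 7.79 CPM. The gene with the largest change was Vsir, which encodes VISTA, a B7-family molecule that restrains T cells and myeloid cells. Vsir was at 684 and 626 CPM in control libraries and at 33.8 and 24.2 CPM in mimic libraries. This 22.6-fold fall (log2 fold change −4.50 ± 0.17, edgeR adjusted p = 9.9e-11) was opposite in direction to the changes of Cd274 and Cd276. Nectin2 fell by 0.73 on the log2 scale and kept this direction under all 11 alternatives. Its call was lost with library size alone (−0.36, edgeR adjusted p = 0.21), without control replicate 2 and without mimic replicate 2. Tnfsf18, which encodes the ligand of GITR, had the largest positive change of the list (log2 fold change 2.85, edgeR adjusted p = 0.0019). It went from 2 and 3 counts in control to 19 and 30 in mimic libraries. Tnfsf14, not tested, went the other way, from 3 and 10 counts in control to 0 and 0 in mimic libraries. Tnfsf4, Cd70 and Cd200 had 0 counts in all 4 libraries.

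Genes that act downstream of CD40 also held both higher and lower genes. Of 14 listed and tested genes 9 rose, 1 fell and 4 missed the threshold, beside the same shares of 31.1% and 29.7% over all genes (median log2 fold change 0.60, with 12 higher and 1 lower with library size alone). Traf1, an adaptor induced by NF-kB, was at 7.07 and 12.4 CPM in control and at 53.0 and 76.7 CPM in mimic libraries, a log2 fold change of 2.73 ± 0.24 like that of Cd40. Relb, a subunit of the noncanonical NF-kB complex, rose by 1.28 ± 0.15 and the adaptor gene Traf2 by 1.22 ± 0.17. Birc2, which encodes the ubiquitin ligase cIAP1, was the gene that fell, by 0.83 on the log2 scale. The call of Ikbkb was lost under 5 alternatives and that of Birc3 without control replicate 1 (edgeR adjusted p = 0.34). The genes for the T cell partners were all but absent. Cd40lg and Ctla4 had 0 counts in every library, Icos and Pdcd1 had 1 count each over all libraries, and Cd28 had 2 to 6 counts per library.

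Of 15 genes of the interferon and JAK-STAT route, which drives Cd274 and Cd40 in macrophages, 5 were higher and 7 lower (median −0.30, against 0.04 over all genes). Among all tested genes 31.1% were higher and 29.7% lower. With library size alone the listed genes were 6 higher and 4 lower (median 0.06), and with gene-length offsets 4 higher and 8 lower. Some of the calls were also lost with 1 library left out. Irf9 and Stat2, which encode transcription factors of the type I interferon response, rose by 1.54 ± 0.13 and 1.49 ± 0.14 on the log2 scale. Irf9 went from 36.8 and 39.5 CPM in control to 108 and 114 CPM in mimic libraries. Lower were Socs3, a feedback inhibitor of STAT3 signalling (123 ± 11.6 to 11.2 ± 1.51 CPM), the lineage transcription factor gene Irf8 (169 ± 5.7 to 35.7 ± 3.66 CPM) and the interferon receptor gene Ifnar2 (162 ± 7.35 to 63.6 ± 1.7 CPM). Irf9 and Stat2 thus moved in the opposite direction to Ifnar2.

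Of 16 genes that control the stability or traffic of the ligand proteins, 6 were higher, 5 lower and 5 did not pass (7 higher and 4 lower with library size alone). This is near the shares of 31.1% higher and 29.7% lower over all tested genes. The membrane-bound ubiquitin ligase MARCH1 removes CD86 and MHC class II from the cell surface. March1, matched by its identifier ENSMUSG00000036469 because its symbol had been turned into a date in the table, was at 14.4 and 9.45 CPM in control and at 0.676 and 1.69 CPM in mimic libraries. It fell by 3.33 on the log2 scale (edgeR adjusted p = 2.9e-06). Its homologue March8, matched in the same way, rose from 66.4 ± 4.04 to 177 ± 7.38 CPM. Cmtm6, whose product keeps PD-L1 from lysosomal degradation, fell from 79.8 ± 1.39 to 44.3 ± 1.46 CPM, while its relative Cmtm4 rose from 44.4 ± 1.96 to 91.2 ± 11.8 CPM. Gsk3b, a kinase known to promote PD-L1 breakdown in human cancer cells, rose by 1.48 ± 0.14, and B3gnt3, a glycosyltransferase gene, fell by 0.84. Within each of the pairs March1 and March8, and Cmtm6 and Cmtm4, one gene was higher and the other lower. Protein levels were not measured.

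**Figure D5:**
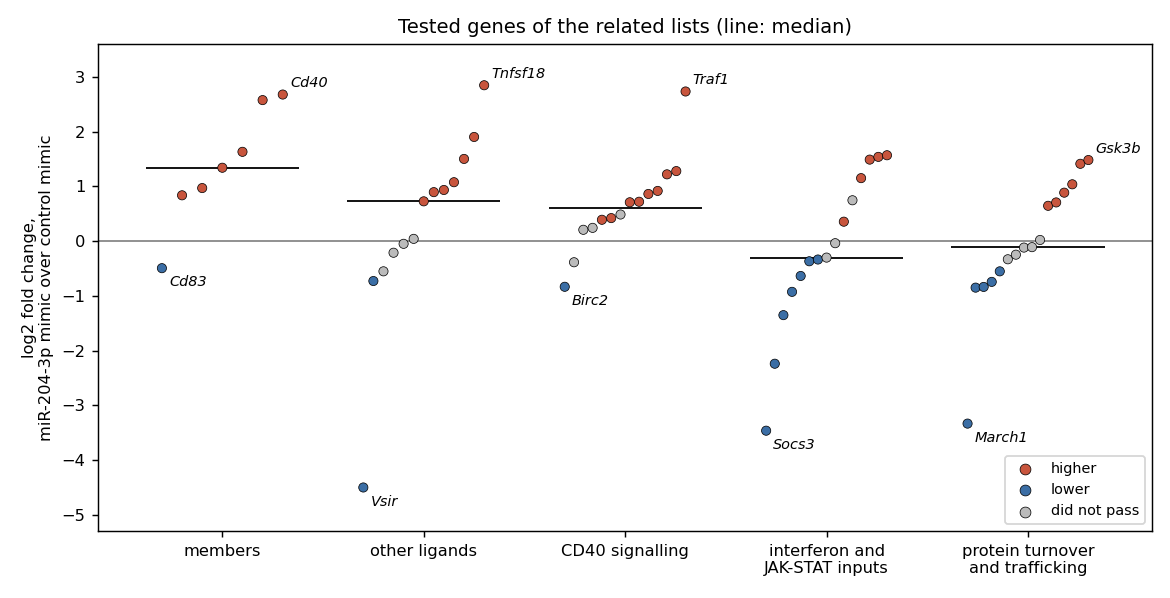
Log2 fold change, mimic over control (vertical axis), of the 7 tested members and of the tested genes of 4 related lists (horizontal axis). Points are genes, coloured by the edgeR call at an adjusted p of 0.05, lines are medians, and the highest and lowest gene of each column are named, except the highest of the interferon column. Vsir, at −4.50, lies lowest, and Tnfsf18, Traf1 and Cd40 reach 2.85, 2.73 and 2.68.

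Genes whose profile over the 4 libraries was most like that of a member were sought among 8933 protein-coding genes with a mean log2 CPM of at least 3, by the Euclidean distance of centred log2 CPM. For Cd274 the nearest was Zfyve26, at a distance of 0.0681. For Cd40 the nearest was Sqstm1 (distance 0.123), for Cd276 Fam13b (0.0671) and for Cd86 Mettl17 (0.036). Skp2 was nearest to Cd80 (0.0172), Rnls to Icosl (0.118) and Sipa1l2 to Cd83 (0.0616). With 4 libraries in 2 groups this likeness mostly reflects a similar fold change.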

How the data were processed

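Gene counts of 4 RNA-seq libraries of mouse bone marrow-derived macrophages were used, 2 per group. A NEBNext Ultra kit was used, per the labels' protocols. HISAT2 and the build mm10 are named in the submitters' processing notes, and the counting program, annotation and strand setting are not given in the sources used here, so reads of overlapping genes could be mixed. The deposited table holds whole-number counts per gene that the authors did not normalise, and gene lengths. Of its identifiers 98.3% of the 54409 also in GENCODE vM21 had the same coordinates, and 27 symbols were dates, so 2 listed genes were matched by identifier. No value column was left unused.

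Differential expression was tested on the deposited counts in R 4.3.3 with edgeR 4.0.16 (glmQLFit and glmQLFTest, TMM factors, filterByExpr by group with a minimum of 10, group as the sole term, adjustment over all tested genes at 0.05). The procedure was first tested on simulated data. Standard errors derive from the F statistic. Within-library ratios used a pseudocount of 0.5. Alternatives were library size alone, median-of-ratios factors, DESeq2 1.42.0, no filter, a minimum of 20, gene-length offsets (lowess, span 0.3), each library left out, and a replicate block. Libraries of a group differed beyond counting noise (chi-square per gene 11.3 and 16.6). Named genes are the members and, from each related list, up to 3 per direction with the lowest p, apart from items not reported here. Members and lists were chosen with earlier results of these data known. Tnfsf18, Tnfsf14, Tnfsf4, Cd70, Cd200, Ikbkb, Birc3, the T cell partner genes and the marker genes are named outside that rule, after their values were seen.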

Additional observations from a re-analysis of the deposited data

How the results depend on the processing

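Cd40, Cd80, Cd86, Cd274, Icosl and Cd276 kept their direction and their call under all 11 alternatives, with log2 fold changes between 0.65 (Icosl) and 3.04 (Cd40). Leaving out 1 library at a time gave 2.55 to 2.79 for Cd40, 0.73 to 0.92 for Cd80, 1.15 to 1.48 for Cd86, 1.46 to 1.76 for Cd274, 0.65 to 1.21 for Icosl and 2.48 to 2.65 for Cd276. The number of members called higher was 6 in every setting. Cd83 was the exception. Its value was −0.13 with library size alone and −0.36 with gene-length offsets, neither of which passed, and −0.82 to −0.24 with 1 library left out, so that the number of lower members was 0 with library size alone, 0 with gene-length offsets and 0 or 1 with 1 library left out. The cause was not tested. Over all genes, library size alone gave 2513 lower genes against 3921. Replicate numbers are shared between the groups, and the labels do not say whether they pair libraries. Deviations of same-numbered libraries from their group means had a correlation of 0.0417 over the tested genes. With 2 libraries per group this cannot settle whether they are paired. With the replicate block 8070 genes passed against 8022, and every member kept its call (Cd83 −0.51). The Cd274 to Pdcd1lg2 difference was 3.12 to 3.66 and that of Cd86 to Cd80 0.34 to 0.67 with 1 library left out. The number of dendritic cell markers called was 5 without the filter against 3. Depth limits Pdcd1lg2, which was fitted only without the filter or with DESeq2. With 3 libraries, a lone sample is assumed to vary like the other group.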
